A study of Mus musculus with 4 samples.

Results

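The comparison described here set an induced pluripotent stem (iPS) cell clone of the mouse against embryonic stem (ES) cells. It held the 2 arrays of a series of 4 on which RNA of the iPS clone was labelled red (Cy5) and RNA of ES cells green (Cy3), and all 41174 gene probes of these arrays entered it. The ES cells were of the line CGR8.8 and the iPS cells were 1 clone, taken 30 days after transduction. Both were grown with leukemia inhibitory factor (LIF), a cytokine that holds mouse ES cells undifferentiated, at 1000 IU/ml. The other 2 arrays carried RNA of mouse embryonic fibroblasts (MEFs), harvested after passaging, against the same ES line, and served here to estimate the spread. The factors transduced, the passage number of the cells and the culture surface are not given in the sources used here.

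Mouse ES cells grown with LIF are held near the naive state of the early epiblast, in which factors such as Nanog, Esrrb, Klf4 and Tbx3 sustain each other. Under FGF, Nodal and Wnt signals such cells can pass to a primed state, in which Fgf5 and Pou3f1 are switched on, and then to primitive streak, in which T and Fgf8 are. Reprogramming replaces the transcripts of a somatic cell by those of this network, and cultures of pluripotent cells are known to differ in how much of the primed, germ line and 2-cell programmes they express.

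A filter on dim probes kept 27725 of the 41174, those with signal well over background for 1 of the RNAs or more, and 27701 of them were measured on every one of the 4 arrays. They stood for 18463 genes, each represented by its brightest probe. Ratios are log2 of iPS over ES, so that 1 is a 2-fold higher and -1 a 2-fold lower signal in the iPS clone. A gene was called at an adjusted p under 0.05 (limma, Benjamini-Hochberg over all 18463 genes) with at least a 2-fold difference. Apart from Snrpd3, called genes picked by the naming rules, given under processing, had adjusted p between 6.98e-09 and 1.57e-05 by limma. Their standard errors were 0.0426 to 0.166 log2 (n = 2 arrays). Some other called members are named below as well, and these ranges do not cover them.

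The 2 pluripotent cultures differed in 3908 genes, 21.2% of those tested. Of these, 1677 genes (9.08%) were higher and 2231 (12.1%) lower in the iPS clone. Germ line, naive pluripotency and 2-cell stage genes lay on the higher side. Actin and contractile genes, MHC class I, Wnt and YAP targets, primitive streak genes and epithelial keratins lay on the lower side. Ribosomal proteins, oxidative phosphorylation and replication genes lay mostly within 2-fold relative to the loess curve, but with median centring 57 of 79 ribosomal genes were called higher in place of 6.

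The median absolute difference over all genes was 0.43 log2, a 1.35-fold difference, and the 95th percentile was 4.65-fold. At 4-fold, 421 genes were higher and 746 lower. At 16-fold the numbers were 48 and 75, and at 64-fold they were 4 and 3. These sizes depend on the processing. Past 8-fold lay 381 genes here, against 1323 with the log ratio of the scanner software and 300 with the mean over probes. The iPS arrays differed from each other by 2-fold for 1 gene, with a standard deviation of 0.114 log2 over genes and a correlation of 0.994 across genes, which are not independent replicates. All 3908 called genes had the same sign on both arrays. The highest ratio belonged to an identifier with no gene name, 1700013H16Rik, at 7.50. The median ratio of all genes was 0.01 and its quartiles were -0.47 and 0.39.

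**Figure D1:**
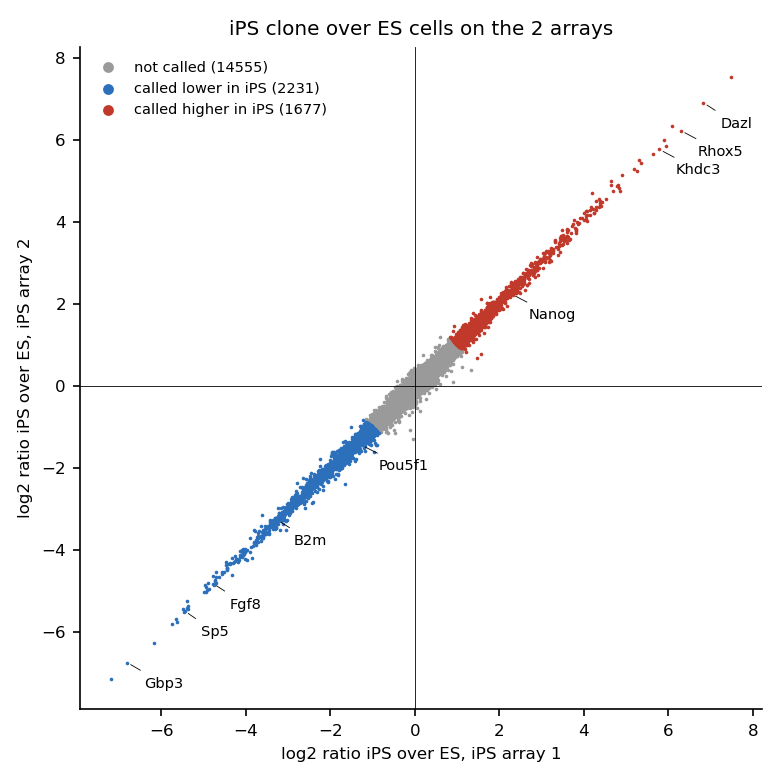
Log2 ratio of iPS over ES cells on iPS array 1 (x axis) and iPS array 2 (y axis), with 1 point for each of 18463 genes, red where called higher (1677), blue where called lower (2231) and grey otherwise. Points lie along the diagonal at a correlation of 0.994, from Gbp3 at -6.78 to Dazl at 6.87 among the genes marked by name.

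The labels call the 2 arrays of a group biological replicates without saying that cultures were separate, so p-values rest on a spread between samples that could be purely technical. Dyes were not swapped, so a dye effect particular to a gene stays in its ratio. All 4 arrays lay on 1 slide read in 1 scan, and position and group cannot be told apart. The ratio against 0 leaves out part of the spread of the ES cells, and 2 arrays limit the precision. In either channel, 61.2% to 63.2% of gene probes exceeded background clearly. Centring on the median without the loess curve put the median gene at 0.18 in place of 0.01. It moved the share of higher genes among the calls from 42.9% to 62.6%, so a direction below is relative to the loess curve of each array. When the background model was fitted over all spots, the ratios of the genes picked by the naming rules moved by at most 0.001, while 2780 genes were called. With that model and the iPS arrays alone in the fit, a setting chosen after seeing the data, all 3908 genes were called. Calls lost under that model in the fit that holds the MEF arrays are named below only for genes picked by the naming rules. In such bulk RNA, fewer cells of a type and less RNA per cell cannot be told apart.

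The 20 largest positive ratios of genes with all probes called alike were led by genes known from the germ line. Dazl, an RNA-binding protein needed for germ cell development, stood at 6.83 and 6.90 on the 2 arrays, a 117-fold difference. Its 2 tested probes, both called higher, differed by 2.88 log2. Rhox5, an X-linked homeobox gene of the reproductive tract, stood at 6.30 and 6.22 (76.6-fold). Khdc3, part of the maternal complex of the oocyte cortex, stood at 5.79 and 5.76 (54.8-fold). These 3 genes lay far above the spread of the arrays. Rec114, which takes part in making meiotic DNA breaks, stood at 5.63 and 5.64. Gtsf1, a factor of the piRNA pathway, which silences transposons in germ cells, stood at 5.36 and 5.42. Stra8, a gene induced by retinoic acid at entry into meiosis, stood at 4.90 and 5.13. Cyct, the cytochrome c of testis, had a mean of 5.24, Rpl39l, a ribosomal protein paralog active in testis, 5.90, and the oocyte gene Nlrp4c 4.54. The 2 Rpl39l probes, both called higher, differed by 2.00 log2. Not every gene at the top is known from germ cells. Nod1, a sensor of bacterial cell wall, had a mean of 4.83, Aqp3, a channel for water and glycerol, 4.80, the unconventional myosin Myo1f 4.86 and Hal, which breaks down histidine, 4.73. The other genes of this set ran from 4.41 (Tex19.2) to 5.95 (Xlr5a), and included Serpina3m, Rhox2a, Platr26, Fthl17e and Ak7.

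The 20 largest negative ratios held genes of interferon response, signalling and the cytoskeleton. Gbp3, an interferon-induced GTPase, stood at -6.81 and -6.75, a 110-fold lower signal in the iPS clone. Sp5, a transcription factor induced by Wnt signals, stood at -5.44 and -5.49 (44.3-fold). Irs1, the adaptor of the insulin and IGF1 receptors, stood at -5.66 and -5.70 (51.2-fold), with its second probe at -1.22. Each of these genes was well above background in both RNAs on both arrays. Anxa3, a calcium-dependent membrane-binding protein, had a mean of -5.46, Efemp1, a fibulin of the matrix, -5.40, and Arl4c, a small GTPase, -5.37. Cxcl10, a chemokine induced by interferon, stood at -5.40 and -5.42. Fgf8, a growth factor of the primitive streak, stood at -4.78 and -4.82 (27.8-fold) with its second probe at -1.76, and Flt1, a VEGF receptor, at -4.74 and -4.85. Keratins Krt19 and Krt18 had means of -4.75 and -4.64, and calponin Cnn1, which binds actin, -4.74. The set also held Fndc3c1 (-5.69), Defcr-rs2 (-5.01), Stmn4 (-4.99), Trim67 (-4.86), Sema3e (-4.73), Thbs1 (-4.71), Prr5l (-4.68) and Rtp4 (-4.63). The probes of Trim67, Sema3e, Thbs1 and Fndc3c1, all called lower, spanned 3.60, 3.43, 2.94 and 2.87 log2. Defcr-rs2 belongs to the many similar defensin genes, so its probe may read several. In the fit with the MEF arrays under the all-spot background, the calls of Cxcl10, Defcr-rs2 and Trim67 were lost (limma adjusted p of 0.062, 0.0613 and 0.0621).

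**Figure D2:**
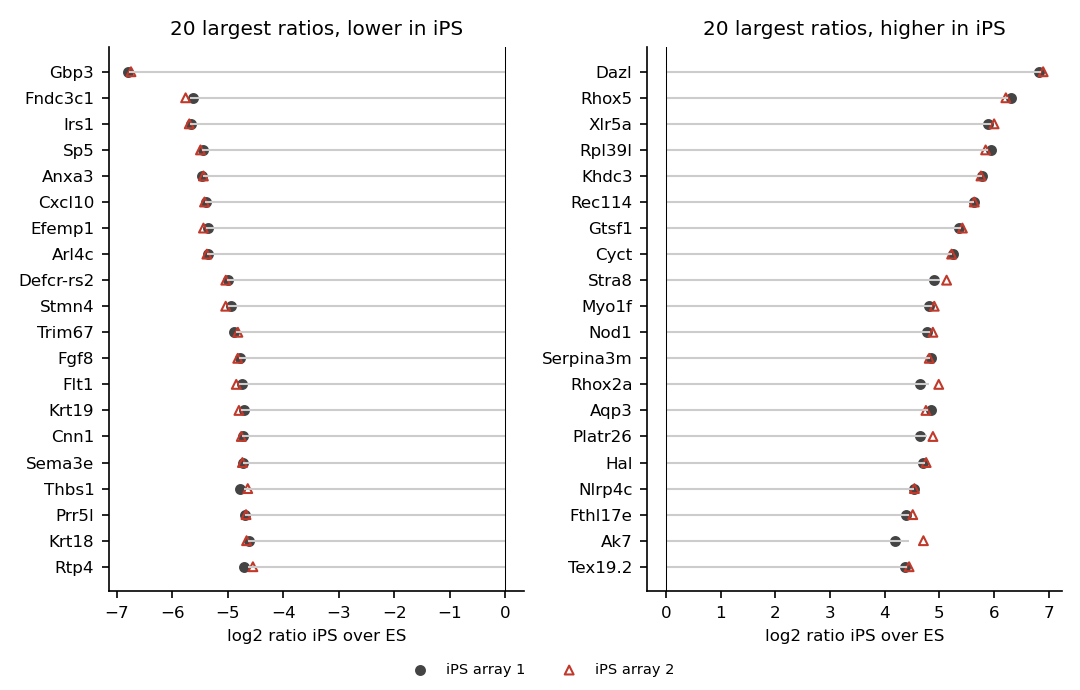
Log2 ratio of iPS over ES cells (x axis) for the 20 genes with the largest negative and the 20 with the largest positive ratio, as circles for iPS array 1 and open triangles for iPS array 2. The arrays lie within about a symbol of each other for most genes, and Ak7 has a wide gap, at 4.19 and 4.71.

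Genes of naive pluripotency were higher in the iPS clone. Of 34 listed, 32 were tested, and 24 were higher, 0 lower and 8 not called, with a median of 1.97. Manba, the lysosomal beta-mannosidase, led the list at 3.79 and 3.84. Fbxo15, an F-box gene used as a reporter of reprogramming, stood at 3.53 and 3.53 (11.5-fold), and Nr0b1, an orphan nuclear receptor, at 3.34 and 3.38 (10.3-fold). Tbx3, a T-box factor, stood at 3.70 and 3.71, but its second probe at 0.62. These members were high on both arrays. Esrrb, an orphan nuclear receptor that supports self-renewal, stood at 2.94 and 3.02, Nanog at 2.30 and 2.23 (4.80-fold) and Tfcp2l1 at 2.44 and 2.53. The 4 tested Tfcp2l1 probes spanned 1.509 log2 and were not all called. Klf4, which is also one of the usual reprogramming factors, stood at 1.89 and 1.94 (3.78-fold). Its probe was not shown to tell the gene's own transcript from a transgene. Dppa3, a maternal factor that shields DNA methylation in the zygote, stood at 2.70 and 2.70. Zfp42 (Rex1), a classic marker of undifferentiated ES cells, was not called at -0.59 and -0.63, and its second probe stood at -1.36. Among the 8 not called, Fgfr1 was lowest at -0.94 and Rarg highest at 0.88.

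Genes shared by naive and primed pluripotent cells were divided. Of 33 tested, 9 were higher, 6 lower and 18 not called, with a median of 0.40. Pou5f1 (Oct4), required in both states, stood at -1.26 and -1.45, a 2.56-fold lower signal. Sox2, its partner on DNA, stood at 1.19 and 1.18, a 2.27-fold higher one. The RNA-binding proteins Lin28a and Lin28b, which block let-7 maturation, stood 4.01-fold and 5.21-fold lower, with the other Lin28b probes at -0.35 and -0.69. Myc stood at -2.18 and -2.27 (4.67-fold lower). Pou5f1, Sox2 and Myc are also usual reprogramming factors. Their probes, like that of Klf4, were not shown to tell the genes' own transcripts from transgenes. Alpl, the tissue-nonspecific alkaline phosphatase used to stain pluripotent colonies, stood at 2.74 and 2.83. Dppa2, a chromatin factor of early embryos, stood at 2.69 and 2.76, and Jarid2, a subunit of Polycomb complex 2, at a mean of 2.01. In the fit with the MEF arrays under the all-spot background, 11 naive genes were called higher in place of 24, and of the shared genes 3 were higher and 1 lower in place of 9 and 6. The calls of Nanog, Esrrb, Dppa3, Fbxo15, Nr0b1, Tfcp2l1, Pou5f1, Sox2, Lin28a, Lin28b, Alpl and Jarid2 were lost, with limma adjusted p from 0.0578 (Fbxo15) to 0.472 (Sox2).

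Genes of the primed epiblast and primitive streak were mostly lower in the iPS clone. Of 40 tested, 27 were lower, 2 higher and 11 not called, with a median of -1.83. Beside Fgf8, T (brachyury), the defining factor of the streak, stood at -4.25 and -4.27 (19.2-fold), and the caudal factor Cdx2 at -3.35 and -3.28. Cdh2, the N-cadherin gained at gastrulation, stood at -4.17 and -4.29 (18.8-fold). Lefty1, a feedback inhibitor of Nodal, stood at -3.59 and -3.53. These members were low on both arrays. Fgf5, the usual marker of the primed epiblast, stood at -2.90 and -2.97 (7.64-fold). Not all members lay low, since Nodal itself was not called at -0.45, Eomes stood at 0.14 and Otx2 at 0.40. The higher members were Spp1 (2.32), a secreted phosphoprotein, and Dnmt3a (1.57). The 3 tested Dnmt3a probes spanned 1.465 log2 and were not all called. Under the all-spot background in the fit with the MEF arrays, 11 members were called lower in place of 27, at a median of -1.83. There the calls of T, Cdx2 and Foxa2, a forkhead factor of streak and endoderm (-2.32), were lost (limma adjusted p of 0.0652, 0.0788 and 0.0533).

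**Figure D3:**
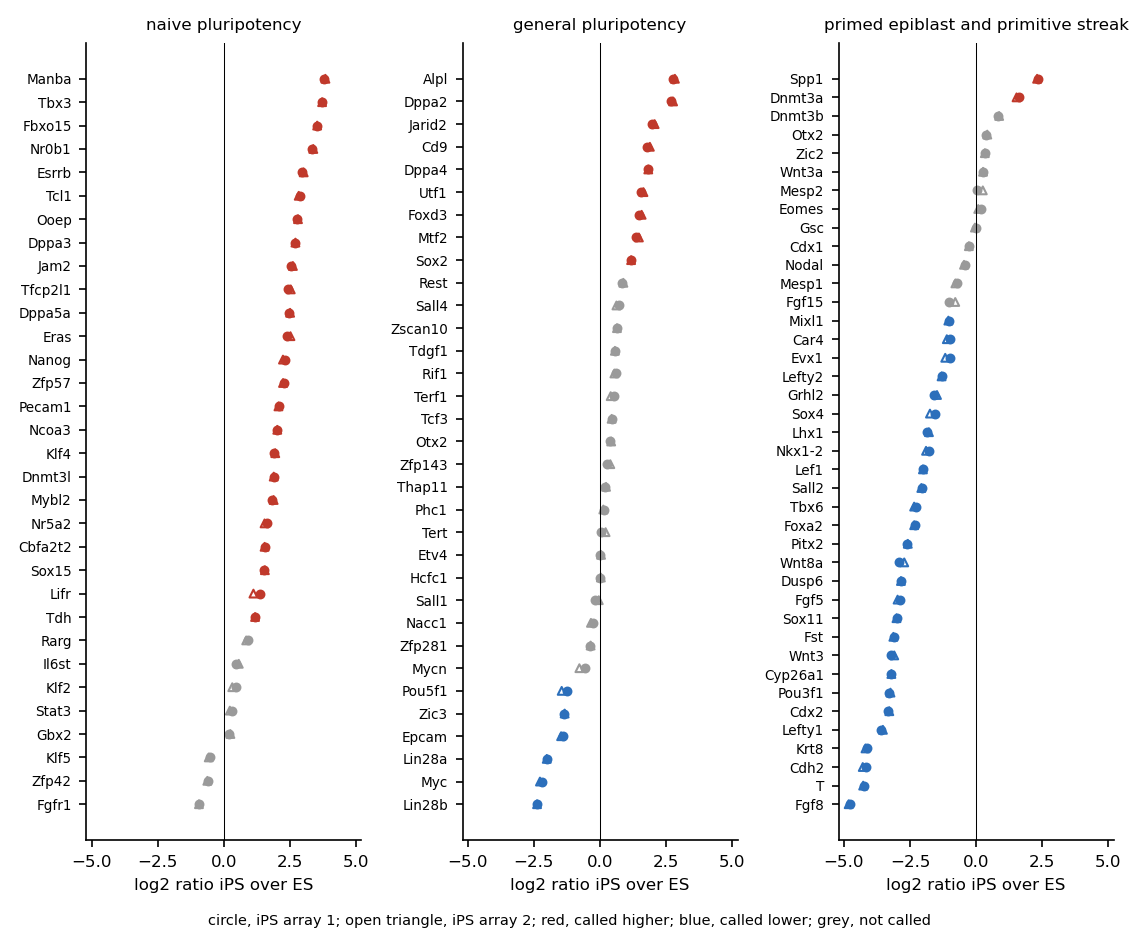
Log2 ratio of iPS over ES cells (x axis) for each tested gene of the naive (32), general (33) and primed or primitive streak (40) lists, as circles for iPS array 1 and open triangles for iPS array 2, red where called higher and blue where called lower. Members called higher number 24, 9 and 2 in the panels from left to right, and members called lower 0, 6 and 27.

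Lists of other early lineages were also mixed or lower. Of 34 primitive endoderm genes, 14 were lower, 5 higher and 15 not called (median -0.68). The lower ones included Serpinh1, a collagen chaperone (-3.24), and Foxa2 (-2.32). The lineage factors Gata6 and Sox17 were not called at 0.57 and 0.58, and Srgn, a proteoglycan core protein, was the highest at 3.44. Of 26 trophoblast genes, 10 were lower, 4 higher and 12 not called (median -0.44). The lower ones were led by Krt19, Krt18 and Krt8, which also belong to the epithelial list, and Esx1, an X-linked homeobox gene of placenta, was higher at 3.64 and 3.56. Of 36 neural genes, 20 were lower, 2 higher and 14 not called (median -1.16). Nes, an intermediate filament of neural progenitors, stood at -3.65 and -3.67, Map1b, which binds microtubules, at -3.47 and -3.41 (its second probe at -1.14), and Gap43, a growth cone protein, at -3.31 and -3.32. The early neural factor Sox1 stood at -0.08 and was not called. In the fit with the MEF arrays under the all-spot background, 7 primitive endoderm and 10 neural genes were lower, and 1 trophoblast gene was higher.

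The germ line lists lay high as a group. Of 54 genes of germ cells and meiosis, 33 were higher, 4 lower and 17 not called, with a median of 1.35. Taf7l, a germ cell variant of a TFIID subunit, stood at 4.30 and 4.50 (21.1-fold). Smc1b, the meiotic cohesin subunit, stood at 4.17 and 4.37 (19.3-fold). Hormad1, which marks unpaired meiotic chromosomes, stood at 3.77 and 4.05 (15.1-fold). All of these were above background in both RNAs and high on both arrays. The lower members were the Tudor-domain genes Tdrd5 (-1.78), Tdrkh (-1.23) and Tdrd1 (-1.14) and the Kit ligand Kitl (-1.06). With the all-spot background and the MEF arrays in the fit, 23 genes of this list were higher and 0 lower. Of 40 listed genes of X-linked germ line families, 21 were tested, and 19 were higher, 0 lower and 2 not called (median 1.81). They included Xlr4b at 4.28 and 4.29, Xlr3c at 3.50 and 3.47, and Xlr5c, which was at least 16.2-fold higher and dim in ES cells on both arrays (limma adjusted p = 2.27e-08). Xlr, Magea and Rhox genes occur in near-identical copies, so a probe may read several members and the member named is uncertain.

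Oocyte and 2-cell stage genes followed the same direction in part. Of 30 tested oocyte and maternal effect genes, 11 were higher, 1 lower (Cpeb1, -2.63) and 18 not called, with a median of 0.60. Nlrp4f stood at 6.10 and 6.34 but was above background in ES cells on 1 of 2 arrays. Tle6, a partner of Khdc3, stood at 3.12 and 3.13 (8.70-fold), and Sohlh2, a helix-loop-helix factor of germ cells, at 3.19 and 3.20. Of 13 tested 2-cell stage genes, 9 were higher, 0 lower and 4 not called (median 1.70). Zscan4c, of a cluster active in rare 2-cell-like cells, stood at 4.16 and 4.28 with its second probe at 3.03. Usp17la stood at 3.60 and 3.49, and Pramel6 at 3.07 and 3.16. With the scanner log ratio the medians were 2.95 for germ cells and meiosis, 4.55 for the X-linked families, 1.65 for oocyte and 2.72 for 2-cell genes. Fewer were called higher with the all-spot background and the MEF arrays in the fit. The numbers there were 16 X-linked, 9 oocyte and 7 2-cell genes. Zscan4, Tcstv and Pramel genes are multi-copy as well, and their members cannot be told apart with certainty. The call of Tcstv1 (2.16) was lost in the fit with the MEF arrays under the all-spot background (limma adjusted p = 0.0967).

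Promoters of the germ line lists were read from RefSeq's table for GRCm38.p6, which holds 32851 windows of 27025 genes, over the 250 bases before each start site. The E-box CACGTG and the E2F motif TTCCCGC, searched on both strands, are shown in capitals in the 3 members below, chosen because their windows hold one of the motifs and their ratios are among the largest.
Taf7l: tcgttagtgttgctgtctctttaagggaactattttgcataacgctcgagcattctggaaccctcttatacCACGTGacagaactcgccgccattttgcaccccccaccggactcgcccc
Hormad1: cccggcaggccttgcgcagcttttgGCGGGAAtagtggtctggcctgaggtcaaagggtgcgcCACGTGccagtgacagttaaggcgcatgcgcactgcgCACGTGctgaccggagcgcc
Smc1b: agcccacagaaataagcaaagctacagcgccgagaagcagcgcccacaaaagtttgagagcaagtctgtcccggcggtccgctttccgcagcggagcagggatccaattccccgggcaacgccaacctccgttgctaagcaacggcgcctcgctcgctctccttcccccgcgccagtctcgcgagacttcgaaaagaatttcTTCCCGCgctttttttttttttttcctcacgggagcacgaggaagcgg
The stretches lie at chrX:134476491-134476610 (minus strand), chr3:95559557-95559676 (plus strand) and chr15:85131958-85132207 (minus strand), each ending at the base before the start site. Taf7l holds 1 E-box, Hormad1 holds 2 E-boxes and 1 E2F motif, and Smc1b holds 1 E2F motif. Over all tested members of the germ cell, X-linked, oocyte and 2-cell lists, 21 of 120 windows (17.5%) held the E-box, against 6.02% of all windows. The E2F motif was in 13 of those 120 windows (10.8%), against 3.82% of all. Among the members called higher, 17 of 71 windows (23.9%) held the E-box and 8 (11.3%) the E2F motif. Both motifs contain the pair CG, of which the median window held 8 for the tested members, 9 for the higher ones and 6 over all. The part of this in the shares was not tested. Start sites of 1 gene that lie close together, as in Hormad1, count as separate windows. Dazl, Stra8 and Rhox5 are not among those with an E-box in this window. A match is a stretch of letters and says nothing of binding.

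Genes of DNA methylation and of the complex known to hold germ line genes silent were read beside these lists. Of 25 writers, erasers and cofactors of DNA methylation, 9 were higher, 4 lower and 12 not called, with a median of 0.67. Dnmt3l, the cofactor of de novo methylation, stood at 1.91 and 1.88, Zfp57, which protects imprints, at 2.28 and 2.24, and the remodeller Hells at 1.62 and 1.73. The dioxygenases Tet1 and Tet2, which oxidise methylcytosine, had means of 1.59 and 1.37, and Tet3 -1.72 with a second probe at -0.30. Dnmt1 (0.96 and 0.94) and Dnmt3b (0.84 and 0.87) did not reach 2-fold and did with median centring, at 1.29 and 1.26. Uhrf1, which brings Dnmt1 to newly replicated DNA, stood at 1.30 and 1.31. Of 41 genes of Polycomb and the germ line repressor complex, 4 were higher, 3 lower and 34 not called (median 0.14), against 11 higher and 2 lower with median centring (median 0.49). The main shares, 9.76% higher and 7.32% lower, were near or below the 9.08% and 12.1% of all genes tested. Mga (0.34) and Pcgf6 (0.71), subunits of the complex that binds E-box and E2F motifs at germ line genes, were not called, and Pcgf6 was called with median centring at 1.07. E2f6, of the same complex, was called at -1.14 and -1.18 but its second probe stood at 0.32, and leaving out spots marked as background outliers turned its value to 0.32. Only 5 methylation genes and 1 Polycomb gene were called higher, and the calls of Dnmt3l, Hells, Uhrf1 and Jarid2 were lost, in the fit with the MEF arrays under the all-spot background, at limma adjusted p of 0.248, 0.12, 0.0901 and 0.079.

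Lists of Wnt, FGF and YAP signalling lay on the lower side in the iPS clone. Of 46 tested Wnt pathway genes and targets, 21 were lower, 1 higher (Porcn, 1.46) and 24 not called, with a median of -0.82. Axin2, a feedback target of beta-catenin, stood at -3.66 and -3.68 (12.7-fold). The ligands Wnt3 and Wnt6 had means of -3.15 and -3.36. Beta-catenin itself, Ctnnb1, stood at 0.08 and was not called. A match of the TCF motif ATCAAAG, searched on both strands, lay in the window of Sp5, at chr2:70474673-70474922 (plus strand), and it is shown because Sp5 had the largest ratio of the list.
Sp5: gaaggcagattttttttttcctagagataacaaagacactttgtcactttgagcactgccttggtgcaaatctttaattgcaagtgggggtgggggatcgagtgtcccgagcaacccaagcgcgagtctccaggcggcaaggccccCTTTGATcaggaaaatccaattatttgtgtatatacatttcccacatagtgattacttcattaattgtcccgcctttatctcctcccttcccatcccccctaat
The TCF motif, in capitals as its reverse complement, was in 3 of 25 windows of the lower members (12%), against 3.21% of all windows. That share rests on 3 windows of members chosen by their call, and the whole tested Wnt list was not counted. Under the all-spot background with the MEF arrays in the fit, 9 Wnt genes were lower in place of 21, and the calls of Wnt3 and Wnt6 were lost (limma adjusted p of 0.0591 and 0.0677).

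Of 32 tested genes of FGF and ERK feedback, 16 were lower, 0 higher and 16 not called (median -1.01). Egr1, an immediate early factor, stood at -3.70 and -3.68 (12.9-fold), and the ERK phosphatases Dusp6 and Dusp4 had means of -2.85 and -2.75. Other feedback genes lay near the median of all genes, with Spry4 at 0.24 and Spry1 at 0.25. Grb10, an imprinted adaptor that restrains insulin and IGF signals, stood at -4.05 and -4.07 (16.7-fold). Of 60 genes of TGF-beta, Nodal and BMP signalling, 23 were lower, 2 higher and 35 not called (median -0.55). Fst, follistatin, which binds activins, stood at -3.11 and -3.13, and Fstl1 had a mean of -3.09. Inhbb, an activin subunit, stood at 3.88 and 3.97 with its second probe at 0.16. In the fit with the MEF arrays under the all-spot background its call was lost (limma adjusted p = 0.122) and 14 genes of this list were lower. Of 25 genes of the LIF receptor and Stat3 pathway, 5 were higher, 7 lower and 13 not called, with a median of -0.23 that turned to 0.10 with median centring. Stat3 stood at 0.26 and was not called, while Junb had a mean of -3.14. Pramel7 had one of 4.46 and was above background in ES cells on 1 of 2 arrays.

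Genes of the actin cytoskeleton had the lowest median of the 39 lists, at -2.51. Of 58 tested, 41 were lower, 1 higher (Myh3, 1.68) and 16 not called. With the all-spot background and the MEF arrays in the fit, 39 were lower and 0 higher. Acta1, skeletal muscle alpha-actin, stood at -4.45 and -4.47, and Fhl2, a LIM-domain cofactor, at -4.24 and -4.16 (18.4-fold). The calcium-binding proteins S100a6 and Anxa1 had means of -4.36 and -4.32. These members were low on both arrays. Cytoplasmic actin Actb stood at -0.52 and was not called. The CArG box, the motif of serum response factor, made of a CC, a run of A or T and a GG, was searched on both strands and is in capitals below, in named members of the actin list whose windows hold it.
Acta1: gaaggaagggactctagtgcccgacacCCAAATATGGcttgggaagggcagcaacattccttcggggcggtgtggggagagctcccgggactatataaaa
Fhl2: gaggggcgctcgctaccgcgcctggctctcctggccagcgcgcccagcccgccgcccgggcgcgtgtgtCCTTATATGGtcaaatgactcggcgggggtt
These stretches lie at chr8:123894776-123894875 (minus strand) and chr1:43163962-43164061 (minus strand) of GRCm38.p6. The CArG box was in 10 of 59 windows of the tested actin list (16.9%), against 1.47% of all windows, and in 9 of 42 windows (21.4%) of its lower members.

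Of 44 tested targets of YAP, of the Hippo pathway, and of serum response factor, 28 were lower, 0 higher and 16 not called (median -1.69). Ccn4 stood at -4.38 and -4.32, Amot, an angiomotin that binds YAP, at -4.05 and -3.97, and F3, tissue factor, at -3.54 and -3.42. Ccn2, a matricellular protein often read as a YAP target, had a mean of -3.38. Yap1 itself stood at -0.29 and was not called. Among 52 genes of caveolae and growth factor receptors, 21 were lower, 6 higher and 25 not called (median -0.81). Cav1, the main coat protein of caveolae, was at least 74.4-fold lower and not well above background in the iPS clone, while its second probe stood at -1.24 (limma adjusted p = 6.98e-09). Egfr, the EGF receptor, stood at -4.01 and -4.03 (16.2-fold), and its other probes ran from -2.24 to -1.56. Kdr, a VEGF receptor, stood at -4.08 and -4.12, and Kit, the receptor of stem cell factor, was higher with a mean of 3.63.

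Lists of matrix, adhesion and epithelial genes held more lower than higher members. Of 57 fibroblast matrix genes, 34 were lower, 1 higher (Ddr2, 2.28, with its second probe at 0.57) and 22 not called, with a median of -1.49. Col1a1 stood at -5.73 and -5.80 with its other probes at -2.98 and -0.49, and Col1a2 at -4.57 and -4.58 with its second probe at -0.08. Col8a1, a network-forming collagen, stood at -4.02 and -4.23. In 41 mesenchymal regulators, 11 were lower (26.8%), 4 higher (9.76%) and 26 not called (median -0.22), against 12.1% lower and 9.08% higher over all genes. Vim, vimentin, stood at -3.46 and -3.61 (11.6-fold). Of 40 genes of basement membrane and laminin receptors, 17 were lower, 3 higher and 20 not called (median -0.76), with the laminin chain Lamb1 at -2.05 and -2.06 and the leukocyte integrin Itgb7 higher at 2.58 and 2.62. Of 54 genes of epithelial junctions and keratins, 30 were lower, 3 higher and 21 not called (median -1.29). Krt8 stood at -4.14 and -4.19 (17.9-fold), Perp, a desmosomal tetraspan protein, at -4.13 and -4.03, and Cdh1, E-cadherin, at -1.26 and -1.33. Dsp, desmoplakin, stood at -4.23 and -4.23 with its other probes from -2.20 to -0.52. The gap junction gene Gjb5 was higher at 2.69 and 2.82. The calls of Cdh1 (limma adjusted p = 0.297) and Cldn7 (0.0529) were lost in the fit with the MEF arrays under the all-spot background, and Cdh1 stood at -0.69 with median centring. In that fit 20 fibroblast matrix, 8 basement membrane and 13 epithelial genes were lower, and 0 fibroblast matrix genes were higher.

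The 10 fibroblast markers were read beside these lists. All 10 were well above background in the ES channel on both arrays and 5 in the iPS channel, and 7 were called lower and 0 higher. Their summed normalized intensity was 33600 and 32800 in the ES channel and 2350 and 2320 in the iPS channel. The ES sums came mostly from Col1a1 and Col1a2, at mean log2 levels of 14.3 and 13.2, against 9.89 or less for the others. The tested probes of Col1a1 and Col1a2 spanned 5.28 and 4.49 log2, so the fall in the sum rests on probes that other probes did not match. Col3a1 was at least 8.43-fold and Postn at least 3.94-fold lower, and both were dim in the iPS clone, with the second Col3a1 probe at -0.09, while Thy1 stood at 0.41. In MEFs over ES cells, on the arrays that share the ES RNA, Col1a1 stood at 4.30 and Thbs1 at 2.48. Vim, Krt18 and Krt8 are made by many cell types. The part of fibroblast-like cells in the ES culture in these lists was not tested.

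**Figure D4:**
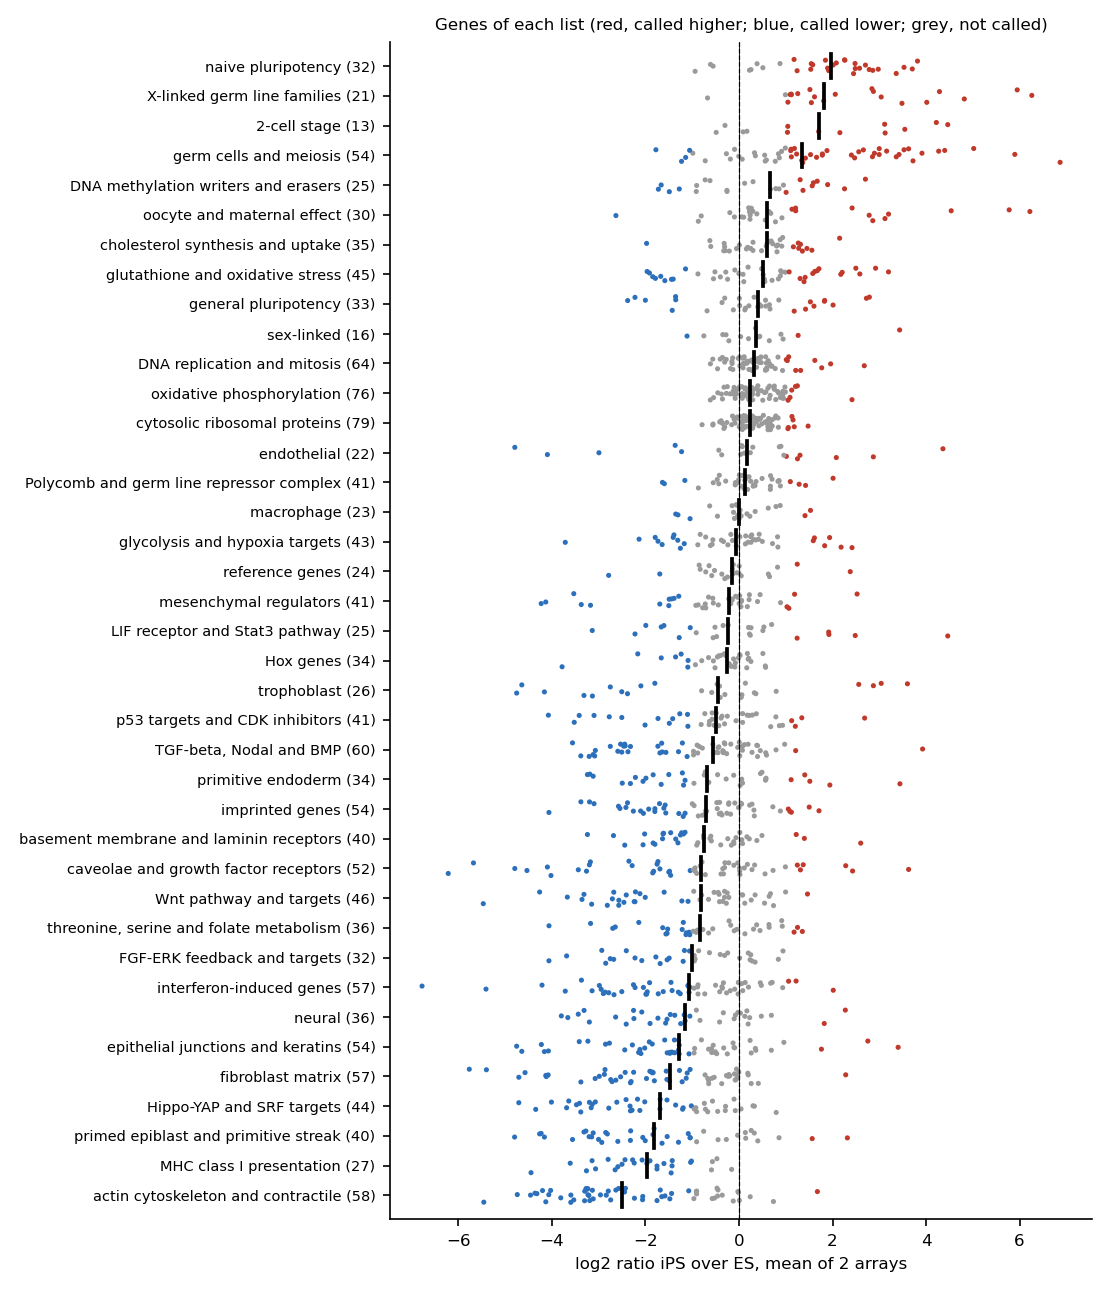
Log2 ratio of iPS over ES cells (x axis, mean of the 2 arrays) for the tested genes of 39 lists, with the number of genes in parentheses, red where called higher, blue where called lower and grey otherwise. A black bar marks the median of each list, from -2.51 in the actin list to 1.97 in naive pluripotency, and the dashed line marks the median of all genes at 0.01.

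Antigen presentation and interferon-induced genes were lower in the iPS clone. Of 27 tested genes of MHC class I presentation, 23 were lower, 0 higher and 4 not called, with a median of -1.97. Psmb8, a subunit of the immunoproteasome, stood at -4.44 and -4.45 (21.8-fold). B2m, the light chain of every MHC class I molecule, stood at -3.25 and -3.27 (9.59-fold), and its other probes at -3.74 and -1.05. Irf1, a transcription factor of these genes, stood at -3.12 and -3.16, and H2-T10, a nonclassical heavy chain, at -3.09 and -3.05. The peptide loading proteins shared with other secreted glycoproteins, Calr (-0.16) and Canx (-0.59), were not called. H2 heavy chain genes are near-identical, so their probes may read several of them. Of 57 interferon-induced genes, 30 were lower, 3 higher and 24 not called (median -1.07). Gbp2 stood at -4.20 and -4.23 (18.5-fold), Isg15, a ubiquitin-like modifier, at -3.74 and -3.69 (13.1-fold), and Irgm1, an immunity GTPase, at -3.43 and -3.31. The receptor chains Ifnar1 (-0.35) and Ifnar2 (0.48) were not called, and Oasl1, of the oligoadenylate synthetase family, was at least 4.04-fold higher, its ES signal being close to background (limma adjusted p = 1.07e-07).

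The interferon-stimulated response element, searched by its core of TTTC, any 2 bases and TTTC on both strands, is in capitals in the promoters of 4 named members of these lists whose windows hold it.
Gbp3: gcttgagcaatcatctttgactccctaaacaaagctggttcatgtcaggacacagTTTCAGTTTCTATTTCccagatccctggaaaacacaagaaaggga
Gbp2: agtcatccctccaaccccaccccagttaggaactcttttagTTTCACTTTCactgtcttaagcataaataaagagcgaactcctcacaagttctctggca
Isg15: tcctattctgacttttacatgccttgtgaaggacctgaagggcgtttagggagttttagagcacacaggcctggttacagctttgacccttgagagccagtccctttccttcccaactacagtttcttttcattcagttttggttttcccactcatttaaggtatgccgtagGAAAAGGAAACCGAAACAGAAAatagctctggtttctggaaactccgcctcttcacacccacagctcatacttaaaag
B2m: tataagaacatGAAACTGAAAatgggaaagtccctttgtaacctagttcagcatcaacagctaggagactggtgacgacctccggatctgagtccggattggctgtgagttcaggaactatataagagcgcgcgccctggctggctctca
The stretches lie at chr3:142559944-142560043 (plus strand), chr3:142620563-142620662 (plus strand), chr4:156200819-156201068 (minus strand) and chr2:122147537-122147686 (plus strand) of GRCm38.p6. Gbp3 holds 2 and Isg15 holds 3 overlapping matches, the latter as reverse complements. Over all tested members of the MHC class I and interferon lists, 22 of 75 windows (29.3%) held the core, against 2.98% of all windows. Among the lower members it was in 16 of 46 windows (34.8%). In the same lists the CArG box was in 0 of 75 windows and the E-box in 4 (5.33%).

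**Figure D5:**
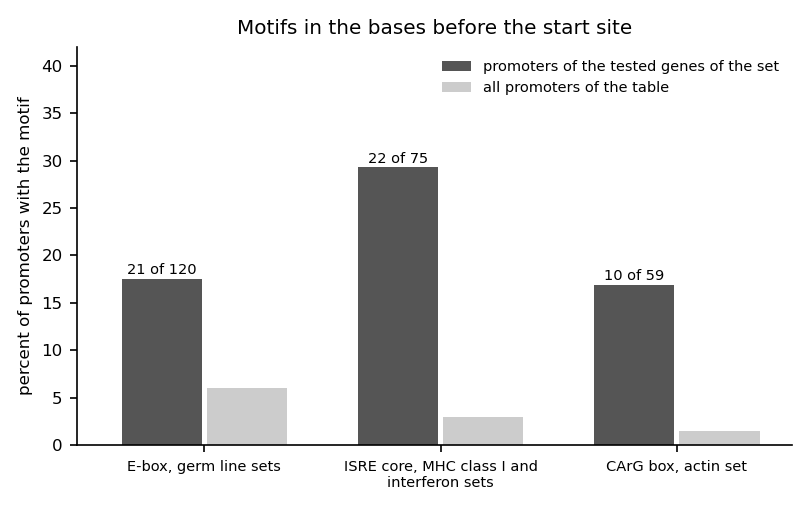
Percent of promoter windows (y axis, the 250 bases before the start site) that hold a motif, for all tested genes of a set (dark bars, with counts) and for all 32851 windows of the table (light bars). The E-box was in 21 of 120 germ line windows, the interferon core in 22 of 75 windows of the MHC class I and interferon lists and the CArG box in 10 of 59 actin windows.

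Imprinted genes, expressed from 1 parental copy, were lower more often than higher. Of 54 tested, 21 were lower (38.9%), 5 higher (9.26%) and 28 not called, with a median of -0.70. Over all genes tested 12.1% were lower and 9.08% higher, so only the lower share stood out. Igf2, a fetal growth factor, stood at -3.21 and -3.18 (9.17-fold), and Cdkn1c, a cell cycle inhibitor, at -3.07 and -3.13 (8.58-fold). H19, the noncoding neighbour of Igf2, was higher at 1.53 and 1.48. In the Dlk1-Dio3 cluster the noncoding RNAs Meg3 and Rian had means of -2.26 and -2.55, and the other Meg3 probes ran from -2.31 to -1.95. Snrpn stood at -0.41 and Igf2r at 0.28, neither called. Of 34 Hox genes, 7 were lower (20.6%), 0 higher and 27 not called (median -0.25). Over all genes tested, 12.1% were lower and 21.2% were called in either direction. Among the lower Hox genes, Hoxa2 and Hoxb3 were dim in the iPS clone on both arrays. Hoxb2 stood at -3.76 and -3.81 with its second probe at -0.21. Under the all-spot background with the MEF arrays in the fit, 2 Hox genes were called lower and the call of H19 was lost (limma adjusted p = 0.0615).

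The size of the difference in the basic machinery of growth depended on the centring. Relative to the loess curve, of 79 ribosomal protein genes, 6 were higher and 0 lower (median 0.22), and of 76 genes of oxidative phosphorylation, 6 were higher and 0 lower (median 0.24). Those higher shares, 7.59% and 7.89%, were near the 9.08% over all genes. With median centring, 57 ribosomal genes were higher at a median of 1.23 and 37 genes of oxidative phosphorylation at 0.96. Among the ribosomal genes called higher, Rpl37a stood at 1.48, and Cox7a1, a muscle-type subunit of cytochrome oxidase, stood at 2.43 and 2.40. The calls of Rpl11, Rpl37a, Rps13, Rps18 and Rps23 were lost in the fit with the MEF arrays under the all-spot background, with limma adjusted p from 0.0863 (Rps13) to 0.114 (Rps18). Those of Cox5a (0.0719), Aurkb (0.063) and Bub1b (0.0863) were lost there too, and without iPS replicate 1 Uqcrh (0.98) missed the threshold. Of 64 genes of DNA replication and mitosis, 9 were higher, 0 lower and 55 not called (median 0.32), against 26 higher with median centring (median 0.87). The higher share of this list was 14.1%, against 9.08% over all genes. With median centring, 2853 of all 18463 genes were higher in place of 1677. Prim2, the large primase subunit, stood at 2.62 and 2.73, E2f1, a factor of S phase entry, at 1.93 and 1.99 with its second probe at 0.86, and the proliferation marker Mki67 at -0.01. Of 41 p53 targets and cell cycle inhibitors, 13 were lower, 4 higher and 24 not called, with a median of -0.49 that turned to 0.05 with median centring. Cdkn2b, the inhibitor p15, stood at -3.55 and -3.50 (11.5-fold), while Cdkn2a had a mean of 0.08 and Cdkn1a, the inhibitor p21, at -0.64 and -0.64, neither called.

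Metabolic and stress genes showed differences between pathways. Of 45 genes of glutathione and oxidative stress, 14 were higher, 9 lower and 22 not called (median 0.52), against 22 higher with median centring (median 0.97). Gpx2, a glutathione peroxidase, stood at 3.20 and 3.20 (9.17-fold), Nqo1, a quinone reductase, at 2.54 and 2.62 (5.99-fold), and Sod2, the mitochondrial superoxide dismutase, at 2.18 and 2.23. Of 35 genes of cholesterol synthesis and uptake, 8 were higher, 1 lower (Scd2, -1.98) and 26 not called (median 0.60), against 16 higher with median centring (median 0.95) and 4 under the all-spot background. Hmgcs1, at the entry of the mevalonate pathway, stood at 2.10 and 2.20, although its other probes stood at 0.27 and 0.92, and Fdps at 1.48 and 1.42. Of 36 genes of threonine, serine and folate metabolism and the amino acid response, 15 were lower, 3 higher and 18 not called (median -0.83). With median centring 10 were lower and 6 higher, at a median of -0.18. Chac1, which degrades glutathione, stood at -4.07 and -4.06 (16.7-fold), Ddit3, a stress factor, at -3.12 and -3.23 (9.03-fold), and Phgdh, the first enzyme of serine synthesis, at -2.16 and -2.13. Tdh, threonine dehydrogenase of mouse ES cells, was higher with a mean of 1.18. Of 43 genes of glycolysis and hypoxia, 10 were lower and 6 higher, with Eno2, an enolase, at -2.12 and -2.16 and Bnip3, a mitophagy receptor, at 2.38 and 2.45. Their median of -0.06 turned to 0.41 with median centring, where 13 were higher and 5 lower. The call of Bnip3 was lost in the fit with the MEF arrays under the all-spot background (limma adjusted p = 0.0512).

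Markers of the labelled cultures and of other cells were checked. All 10 naive markers and all 10 shared markers were well above background in both RNAs, and the naive markers summed to 36200 and 36400 in the ES channel and 174000 and 175000 in the iPS channel. Of 6 macrophage markers, 2 were above background in ES cells and 1 in the iPS clone on both arrays, and Ptprc, Adgre1 and Tyrobp were above it in neither. Of 22 endothelial genes, 6 were higher, 5 lower and 11 not called, with Robo4, a guidance receptor, at 4.37 and 4.35 and Vwf at 2.75 and 2.99 against Kdr and Flt1 on the lower side. Xist, a noncoding RNA of X inactivation, was not well above background in either RNA. The Y-linked Ddx3y stood at -0.32 and -0.24 and was not called. The Y-linked Rbmy, a multi-copy gene of germ cells, stood at 3.31 and 3.56, and Kdm5d was at least 2.35-fold higher and dim in ES cells on both arrays (limma adjusted p = 1.57e-05).

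Differences were spread over all chromosomes of the probes' mm8 annotation. Chromosome medians ran from -0.19 (chromosome 11, where 17.6% of 1506 genes were lower) to 0.16 (chromosome 17, where 13.6% of 906 genes were higher), leaving out chromosome Y with 10 genes. Chromosome X had 12.5% of 671 genes higher and 17.7% lower, with a median of -0.12. The X-linked germ line families described above are among its higher genes.

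Some large ratios rested on 1 probe of several. Of 1541 called genes with several tested probes, 577 (37.4%) had all probes called alike, and for 13 the probes had opposite calls. Prss23, a serine protease, had the lowest ratio of all genes at -7.18 and -7.15, with a second probe at -0.33. Thumpd1 stood at 5.30 and 5.49 with a second probe at -0.03, and Galnt14, a glycosyltransferase, at -5.47 and -5.51 with a second probe at -0.32. Acta2, smooth muscle actin, had 5 probes from -5.77 to -0.25. For Gin1 (-1.60 and 3.17) and Zfp945 (-1.01, -1.13 and 3.76) the probes lay on both sides of 0, and their mean over probes turned positive, at 0.79 and 0.54. Snrpd3, a core spliceosome protein, had the least precise call of the genes picked by the naming rules, at 2.50 and 2.26. Its standard error was 0.28 (limma adjusted p = 0.000223) and its probes stood at 2.51, 2.38 and 0.20. In the fit with the MEF arrays under the all-spot background the calls of Thumpd1, Gin1 and Zfp945 were lost (limma adjusted p of 0.0545, 0.0987 and 0.257). Zfp945 was also not called without iPS replicate 2 (-0.97), with the scanner log ratio (-0.94) or with median centring (-0.78).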

How the data were processed

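Total RNA was labelled and hybridised to 2-colour Agilent arrays of whole-genome oligonucleotides, 1 µg of each RNA per the labels' protocols. The deposited files hold the mean intensity of each spot and its local background, not normalized, that the authors extracted from the scans (Agilent Feature Extraction 10.5.1.1, per the file headers). They also hold the log10 ratio of red over green that the authors' software made from background-subtracted, dye-normalized signals. The deposited series table was identical to it (largest difference 0) and served as an alternative. The array annotation names mm8 per the file headers.

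Background was corrected here with normexp (offset 50) over unmarked spots, 178 to 289 marked as outliers being left out per array, and ratios were normalized by loess (span 0.3) in limma 3.58.1 under R 4.3.3. No spot of the tested genes was saturated on the iPS arrays. Spots were averaged per probe, and the brightest probe stood for a gene. Symbols came from the RefSeq gene table through accession for 24490 probes, symbol for 6234 and synonym for 2379, and from the array file for 8071. The fit (lmFit, eBayes) had 1 coefficient per group over 4 arrays, with 2 residual and 4.41 prior degrees of freedom. It was tested on simulated data. A gene dim on both arrays of an RNA was given as a bound, at least N-fold, against the lowest signal above background and open to dye bias. No set test was run. Lists are described by counts and medians.

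Named genes were the 20 largest called ratios in each direction with both RNAs measured and all probes called alike, up to 6 called members per list, fixed names and the 10 genes whose probes differed most. Other genes, such as uncalled members, were named after their values were seen. The members and lists were chosen with earlier results of these data known. Alternatives covered background model, normalization, dim probes, probe choice, arrays left out, pairing and fold threshold. Promoter sequences are RefSeq's for GRCm38.p6. Motifs and lists beyond those shown were searched as well.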

Additional observations from a re-analysis of the deposited data

How the results depend on the processing

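Of the 242 genes called among those picked by the naming rules, 185 were called under every alternative that gave a value, those added after seeing the data aside. The number of calls was 6426 (3171 higher, 3255 lower; 1323 past 8-fold) with the log ratio of the scanner software, 7285 (3369 and 3916) at 1.5-fold, 2822 with marked spots kept, 2780 with the all-spot background and 4558 with median centring (2853 higher, 1705 lower). It was 3908 without either MEF array, and 3880 to 3966 without an iPS array. E2f6 turned to 0.322 with background outliers left out, Gin1 to 0.788 and Zfp945 to 0.539 with the mean over probes, and Hoxb6 to 0.339 where both RNAs had to exceed background. The medians of macrophage and reference genes turned to -0.02 and 0.228 with median centring. The cause of these changes was not tested.

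With the replicate number as a replicate block, 3908 genes were called. The labels do not say what a number shares, and same-numbered arrays deviated at a correlation of -0.125. The crossed pairing as a block, chosen after seeing the data like the other added alternatives, also gave 3908 calls. The spread rests on 2 residual degrees of freedom, and signals near background limit the dim genes to bounds.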
